A study of Mus musculus with 4 samples.

Results

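Kinesins are motor proteins that burn ATP to move along, cross-link or take apart microtubules. Some build the mitotic spindle, push its poles apart, align chromosomes and complete cell division, and their genes are typically most active in G2 and M phase. Others carry vesicles, organelles and proteins through the cytoplasm and the cilium and are best known from neurons. Embryonic stem cells (ESCs) divide fast, so spindle motors are in steady use there. The study's title names the passage from G2 into mitosis in haploid mouse ESCs, which bears on the motors that act in mitosis.

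The kinesin genes were all genes whose RefSeq symbol starts with Kif followed by a digit, found through the accession that the scanner files give for each probe. They came to 36 genes with 53 of the 39429 probes. Of these, 31 genes had a probe that the scanner software marked as well above background on both haploid or both diploid arrays. They entered the comparison, among 17963 features in all. The genes were split by role into mitotic kinesins (10 of the 11 listed had a named probe, and Kif14 was not analysed here), transport kinesins (15 of 15) and other kinesins (11 of 13 with a probe, 6 of them kept). The study compared 2 arrays of parthenogenetic haploid ESCs with 2 of parthenogenetic diploid ESCs. All cells were female mouse ESCs from unfertilised eggs, so both groups carry a maternal genome only, with 1 chromosome set in the haploid and 2 in the diploid group. No drug, transgene or time course is named in the labels. The 2 samples of a group came from a line 1 and a line 2, and p-values reflect the spread of these lines alone.

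Every value below is the log2 processed signal of a probe minus the 75th percentile of its array, so 0 is the level of that percentile and 1 unit is a doubling. A difference is the haploid mean minus the diploid mean, given with its standard error (SE) from limma, a linear model with a variance shared across features (n = 2 per group, two-sided). Adjusted p is the Benjamini-Hochberg value over all 17963 features, called at 0.05. Probes differ in how well they bind, so levels were not compared between genes.

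Of the 10 ESC markers checked, including Pou5f1, Sox2, Nanog and Zfp42, all were well above background on all 4 arrays. Of the 10, 6 had a higher and 4 a lower haploid mean (median difference 0.05). Both haploid values lay below both diploid values for 3, with Nanog at -0.37, and above for 4, beside 20.9% and 26.0% of all features. At an unadjusted p under 0.05, 1 was lower, Tdgf1 at -0.51, and 0 were higher, beside 4.92% and 6.79% of all features. Several markers of other cells were higher in the haploid group. Of 12 fibroblast markers compared, 9 had a higher haploid mean, and their summed signal was 28.2 and 23.7 times the array's 75th percentile in haploid replicates 1 and 2 against 18.7 and 15.8 in the diploid ones. Their median difference, haploid minus diploid on the log2 scale, was 0.60, with 6 of 12 higher at an unadjusted p under 0.05, beside 6.79% of all features. Dcn, Col3a1 and Lum had a lower haploid mean, at -0.38, -0.39 and -0.29. The bright Vim, which differed by 0.45, carries much of the fibroblast sum. Pdgfra never stood well above background. Of 5 trophectoderm markers, 3 had a higher haploid mean, with summed signals of 17.9 and 14.6 against 13.0 and 13.5, and Elf5 never stood well above background. The median difference of the 5 was 1.02, with 3 higher and 1 lower at an unadjusted p under 0.05, beside 6.79% and 4.92% of all features. Eomes was the lower one, at -0.43 ± 0.17, and its other probe gave -0.68. The keratin gene Krt18 differed by 1.23 ± 0.17 (limma adjusted p = 0.0781), a lower p than any kinesin had. The bright Tfap2c, which differed by -0.14, carries much of the trophectoderm sum. The part of both lists in the kinesin differences was not tested.

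A short element called the cell cycle genes homology region, TTTGAA or TTCGAA, and the CCAAT box are known from promoters of genes active in G2 and M phase. RefSeq promoter windows (GRCm38.p6, 250 bases before to 50 after the transcript start, taken from the RefSeq table) were found for 9 of the 10 measured mitotic kinesins and 11 of the 15 transport kinesins. On either strand, TTTGAA or TTCGAA stood in the windows of 8 of the 9 mitotic kinesins, 1 of the 11 transport kinesins and 2 of 5 other kinesins. Among all 32851 windows of this length the share was 19.2%. CCAAT stood in 5 of the 9 mitotic and 3 of the 11 transport windows, against 37.4% of all windows. Both kinds of motif stood together in 5 of the 9 mitotic windows and 0 of the 11 transport windows, against 7.52% of all. These matches describe letters in a window and do not show binding.

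The 100 bases before the start are shown for Kif11 and Kif22, which have both motifs close to the start, and for the transport kinesin Kif3a, which has CCAAT only. Capitals mark the motifs, which read TTCAAA and ATTGG where they lie on the opposite strand. The stretches are chr19:37376282-37376381 (+ strand) for Kif11, chr7:127042421-127042520 (- strand) for Kif22 and chr11:53567269-53567368 (+ strand) for Kif3a.
Kif11: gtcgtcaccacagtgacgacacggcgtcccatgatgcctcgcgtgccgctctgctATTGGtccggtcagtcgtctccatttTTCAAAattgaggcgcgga
Kif22: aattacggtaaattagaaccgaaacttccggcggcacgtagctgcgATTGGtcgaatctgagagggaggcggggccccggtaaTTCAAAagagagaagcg
Kif3a: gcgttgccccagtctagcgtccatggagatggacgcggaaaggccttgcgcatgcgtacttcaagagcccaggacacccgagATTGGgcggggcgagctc

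For the other 6 mitotic kinesins with a match, the 30 bases around the match nearest to the start are shown, since they let the element and its neighbours be compared. They lie at chr9:61946780-61946809 (- strand) for Kif23, chr9:122951050-122951079 (+) for Kif15, chr19:34922353-34922382 (+) for Kif20b, chrX:100626072-100626101 (+) for Kif4, chr4:117178858-117178887 (-) for Kif2c and chr11:102925104-102925133 (-) for Kif18b.
Kif23: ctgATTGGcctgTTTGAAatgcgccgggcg
Kif15: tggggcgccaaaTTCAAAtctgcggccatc
Kif20b: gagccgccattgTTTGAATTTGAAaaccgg
Kif4: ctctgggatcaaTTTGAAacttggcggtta
Kif2c: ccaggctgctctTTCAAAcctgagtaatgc
Kif18b: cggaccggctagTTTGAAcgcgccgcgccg

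Positions count the first transcribed base of the window's transcript as 1 and the base before it as -1, so they depend on the start that RefSeq's table took. That start was the outermost one of the gene's RefSeq record for Kif11, Kif15 and Kif4. It lay 10, 11, 23 and 47 bases inside the record for Kif18b, Kif23, Kif20b and Kif22, and 1668 and 3852 bases inside it for Kif3a and Kif2c. In Kif11, Kif15 and Kif22 the match begins at -19, -19 and -17. In Kif23, Kif18b, Kif20b and Kif4 it begins at 3, 4, 8 and 20, and in Kif20b a further TTTGAA follows directly at 14. The match of Kif2c lies farther out, at -103, and the window of Kif18a held neither TTTGAA nor TTCGAA.

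Mitotic kinesins had lower signals in haploid than in diploid ESCs in 9 of 10 cases, by small amounts, and none of them passed the test. Their median difference was -0.31, against 0.02 over all features, of which 46.8% lay below 0. In 8 of the 10, both haploid values lay below both diploid values, a pattern shown by 20.9% of all features. No kinesin was called by limma at the adjusted threshold (adjusted p from 0.293 to 0.953 over the 31), where 0.111% of features were called. At an unadjusted p under 0.05, 2 mitotic kinesins were lower and 0 were higher, beside 4.92% and 6.79% of all features. All 10 were well above background on all 4 arrays. In RNA from a whole culture, fewer cells in G2 or M phase and less RNA in each such cell cannot be told apart.

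**Figure D1:**
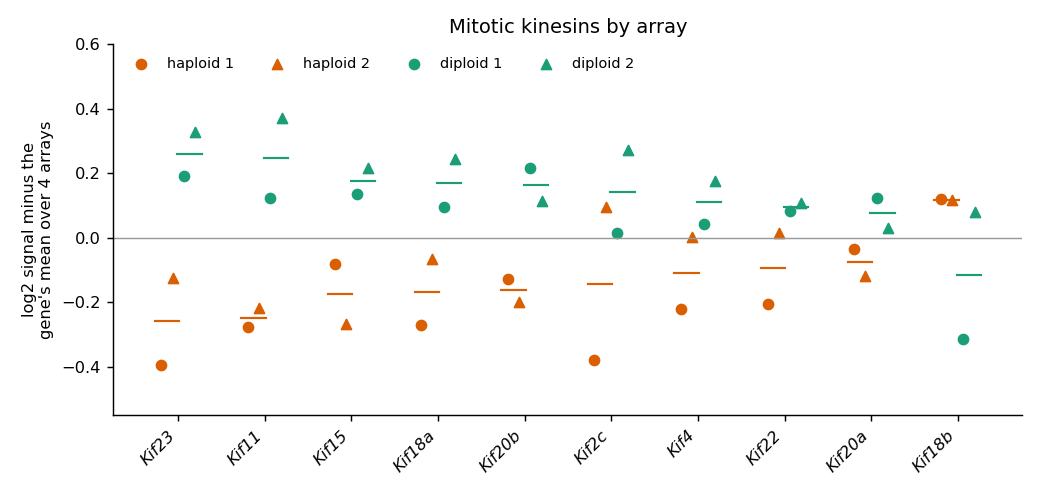
Log2 signal of the 10 mitotic kinesins on each array (points) minus the gene's mean over the 4 arrays, with group means (bars). For 8 genes both haploid points lie below both diploid points, the haploid points of Kif2c overlap the diploid ones, and Kif18b lies the other way.

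The motors that push the spindle poles apart came first. Kif11, the motor that slides antiparallel microtubules and is needed for a bipolar spindle, read -1.31 and -1.25 in haploid replicates 1 and 2 and -0.91 and -0.66 in diploid replicates 1 and 2. The groups did not overlap, and the haploid replicates lay closer together than the diploid ones. The difference was -0.50 ± 0.18, or 1.41-fold lower (95% interval -0.93 to -0.06, limma adjusted p = 0.369), and it ran from -0.62 to -0.37 with 1 array left out. Kif15, which can back up Kif11 in holding the poles apart, read -1.80 and -1.99 against -1.58 and -1.51. Its groups did not overlap either, at -0.35 ± 0.17 (-0.77 to 0.07, limma adjusted p = 0.489).

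The differences of the central spindle and abscission motors ran from -0.52 to -0.15 and were not tested against one another. Kif23, a subunit of centralspindlin that bundles midzone microtubules and marks the cleavage site, read 0.14 and 0.41 in haploid and 0.73 and 0.86 in diploid cells. This was the lowest difference of the 31 genes compared, -0.52 ± 0.18, or 1.43-fold lower (-0.97 to -0.07, limma adjusted p = 0.361), and both haploid values lay below both diploid ones. Kif20b, which acts at the midbody, read 1.53 and 1.46 against 1.87 and 1.77. Its difference was -0.33 ± 0.17 (adjusted p = 0.501), with no overlap. Kif20a, which helps to bring the chromosomal passenger complex to the midzone, read 3.49 and 3.40 against 3.64 and 3.55. The groups did not overlap, but the difference of -0.15 ± 0.17 was smaller than its SE (adjusted p = 0.733). Kif4, a chromosome-bound motor that also shapes the midzone with Prc1 and is encoded on chromosome X, read 0.05 and 0.28 against 0.32 and 0.45. Haploid replicate 2 came near diploid replicate 1, and the difference was -0.22 ± 0.18 (adjusted p = 0.636), or -0.11 without haploid replicate 1. RefSeq lists a transcribed pseudogene of Kif4, and a probe could bind RNA of both.

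Chromosome-aligning motors held the one exception. Kif18a, which dampens chromosome movements at metaphase, read -0.47 and -0.27 in haploid and -0.10 and 0.04 in diploid cells, with a difference of -0.34 ± 0.18 (adjusted p = 0.511). Kif22, a chromosome-arm motor that pushes chromosomes toward the spindle middle, read 4.16 and 4.38 against 4.45 and 4.48, at -0.19 ± 0.18 (adjusted p = 0.680), or -0.08 without haploid replicate 1. In neither gene did the groups overlap, though haploid replicate 2 was close to the diploid level for Kif22. Kif18b, a relative of Kif18a that trims astral microtubules, was higher in haploid cells, at -0.92 on both arrays against -1.35 and -0.96. Diploid replicate 1 alone was clearly lower, so the difference of 0.23 ± 0.20 (adjusted p = 0.649) was 0.04 without it.

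Kif2c, a depolymerase that corrects wrong attachments at the kinetochore, read 0.78 and 1.25 in haploid and 1.17 and 1.43 in diploid cells. Its groups overlapped, and haploid replicate 1 was low. The difference of -0.29 ± 0.22 (adjusted p = 0.623) was -0.05 without haploid replicate 1 and -0.17 for the gene's other probe. Kif2c was the only mitotic kinesin with more than 1 probe, so the others rest on 1 probe each.

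Over the 10 mitotic kinesins the median of signals centred on each gene's mean was -0.21 and -0.09 in haploid replicates 1 and 2 and 0.11 and 0.20 in diploid replicates 1 and 2. Both haploid arrays were thus below both diploid arrays as a set, with haploid replicate 1 and diploid replicate 2 farthest out. The set's median difference was -0.21 without haploid replicate 1 and -0.23 without diploid replicate 2. Differences of all features depended on brightness, with a median of -0.17 in the dimmest of 10 equal classes and 0.22 in the brightest. The 9 lower mitotic kinesins also lay below the median of their own brightness class.

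**Figure D2:**
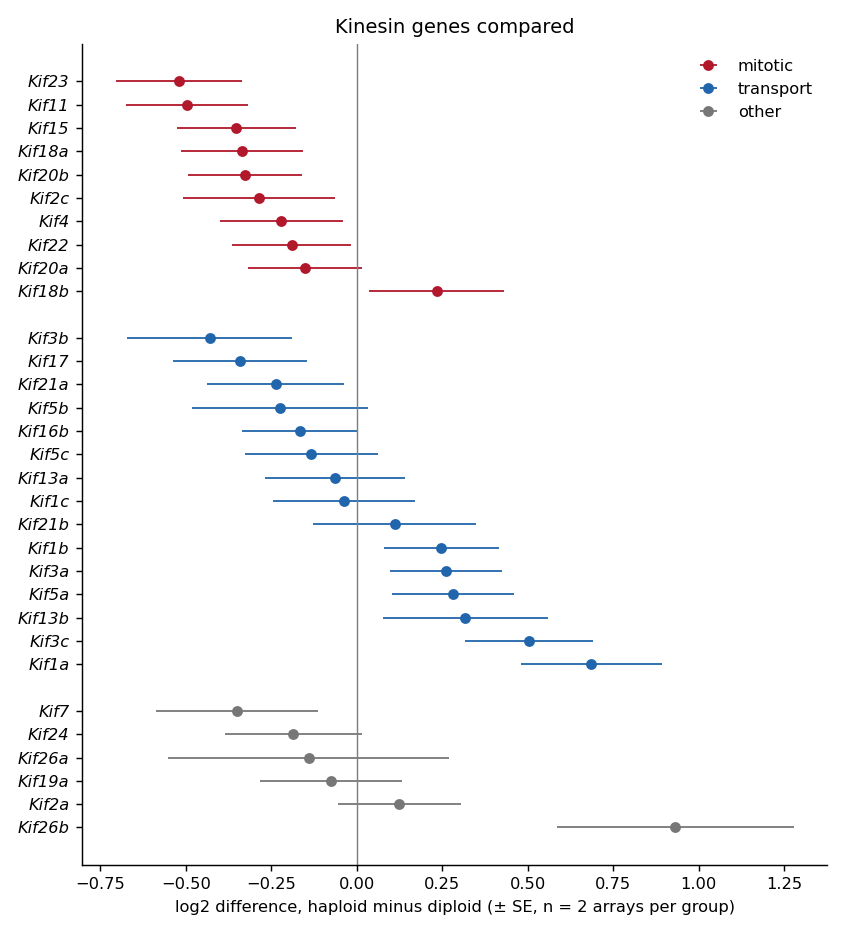
Log2 difference, haploid minus diploid, of the 31 kinesin genes compared, by role, with SE (n = 2 arrays per group). The 9 lower mitotic kinesins run from -0.52 to -0.15, while transport kinesins run from -0.43 to 0.69.

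Transport kinesins were spread to both sides of 0. Of 15, 8 had a lower and 7 a higher haploid mean, with a median of -0.04, against 0.02 over all features. Both haploid values were below both diploid values for 3 of them and above for 5, beside 20.9% and 26.0% of all features. At an unadjusted p under 0.05, 0 were lower and 2 were higher, Kif1a and Kif3c, beside 4.92% and 6.79% of all features. The mitotic median minus the transport median was -0.27, but -0.08 without haploid replicate 1. With that array left out the transport median was -0.14, and without diploid replicate 2 it was 0.17.

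Kif1a, which carries synaptic vesicle precursors along axons, read -3.23 and -2.86 in haploid and -3.86 and -3.61 in diploid cells. The groups did not overlap, at 0.69 ± 0.21 or 1.61-fold higher (95% interval 0.19 to 1.19, limma adjusted p = 0.293), the smallest p of the 31. With normexp on all spots, a background correction, the sign turned, at -0.59. Its other probe never stood well above background. Kif3c, a partner of Kif3a in a motor enriched in nervous tissue, read -0.99 and -0.95 against -1.31 and -1.64. Haploid values were close together and above both diploid ones, at 0.50 ± 0.19 or 1.42-fold higher (0.05 to 0.96, adjusted p = 0.385). Kif5a, a neuronal heavy chain of conventional kinesin, read 0.09 and -0.13 against -0.37 and -0.24. Its difference was 0.28 ± 0.18 (adjusted p = 0.562), or 0.17 without haploid replicate 1, and its other probe gave 0.49. The other heavy chains lay on the other side, with overlapping groups: Kif5b, which is made in most tissues, differed by -0.22 ± 0.26 and Kif5c, which like Kif5a is enriched in neurons, by -0.13 ± 0.19. Both turned above 0 with 1 array left out, Kif5b to 0.12 without haploid replicate 2 and Kif5c to 0.04 without diploid replicate 1. Of 7 neuron markers compared, 6 had a higher haploid mean, and Dcx was never well above background. Rbfox3 had a lower haploid mean, at -0.26. At an unadjusted p under 0.05, 2 of the 7 were higher and 0 lower, beside 6.79% and 4.92% of all features. Both haploid values lay above both diploid values for 4 of the 7 and below for 1, beside 26.0% and 20.9% of all features. The summed signal of the neuron markers was 30.5 and 25.0 times the 75th percentile in haploid against 25.3 and 20.4 in diploid cells, so the sums overlapped. The bright Stmn2, which differed by 0.09 with overlapping groups, carries much of each sum. The part of these markers in the kinesin differences was not tested.

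The subunits of the intraflagellar transport motor had differences on both sides of 0, and no subunit was called. Kif3a, its first motor subunit, read 0.32 and 0.29 in haploid and 0.04 and 0.05 in diploid cells, with the replicates of each group close together. The difference was 0.26 ± 0.16 (adjusted p = 0.559), and 0.02 for its other probe. Kif3b, the usual partner of Kif3a, read -4.09 and -4.24 against -4.04 and -3.43, a dim signal. Its difference was -0.43 ± 0.24 (adjusted p = 0.522) and rested on diploid replicate 2, without which it was -0.13. The other probe of Kif3b went the other way at 1.08. That probe was well above background on 1 array of each group and did not pass the filter. Kifap3, the adaptor of this motor and named outside the rule for naming genes, differed by -0.14 ± 0.19 (adjusted p = 0.786). Kif17, which enters cilia and dendrites, read -2.40 and -2.05 against -1.96 and -1.80, with no overlap, at -0.34 ± 0.20 (adjusted p = 0.530), and -0.16 without haploid replicate 1.

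**Figure D3:**
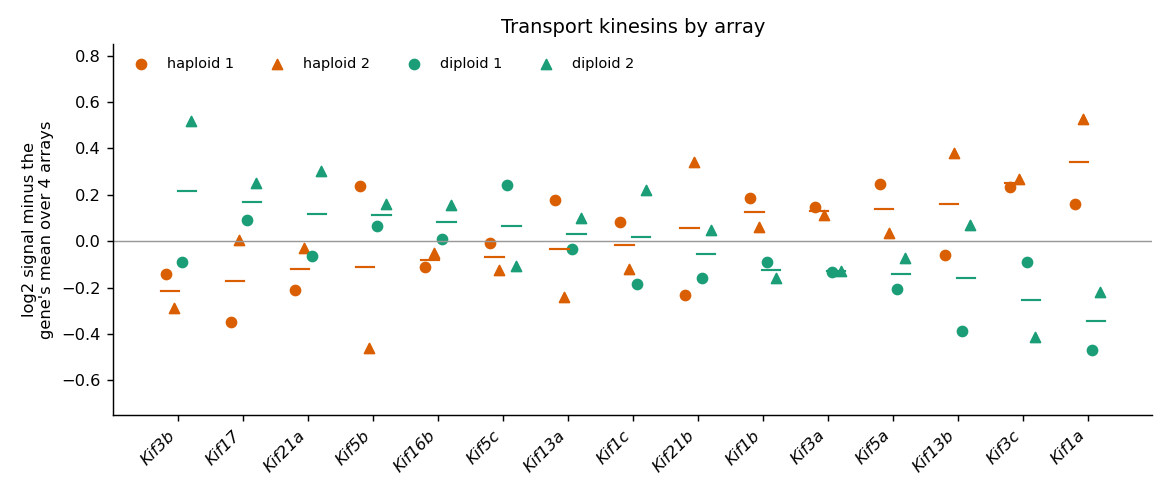
Log2 signal of the 15 transport kinesins on each array (points) minus the gene's mean over the 4 arrays, with group means (bars). Haploid points lie below diploid points at the left for Kif3b, Kif17 and Kif16b and above them at the right for Kif1b, Kif3a, Kif5a, Kif3c and Kif1a.

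The remaining transport kinesins lay on both sides. Kif21a, which restrains microtubule growth at the cell cortex, read -2.97 and -2.79 against -2.82 and -2.46 with overlapping groups (-0.24 ± 0.20, adjusted p = 0.650), and the difference was -0.05 without diploid replicate 2. Kif16b, a motor of early endosomes, read -2.37 and -2.31 against -2.25 and -2.10, without overlap (-0.17 ± 0.17, adjusted p = 0.710, and -0.09 without diploid replicate 2). Kif1b, which carries mitochondria and synaptic vesicle precursors, read 0.28 and 0.16 against 0.01 and -0.06, without overlap (0.25 ± 0.17, adjusted p = 0.584). The other probe of Kif1b, designed to a different transcript accession of the gene, went the other way at -0.60. Kif13a, Kif13b, Kif1c and Kif21b differed by -0.06, 0.32, -0.04 and 0.11, each with overlapping groups. Kif13b was well above background on 1 of the 2 diploid arrays, and its difference ran from 0.09 to 0.55 with 1 array left out.

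Among the 6 other kinesins compared, 4 had a lower and 2 a higher haploid mean (median -0.11). At an unadjusted p under 0.05, where 4.92% of all features were lower and 6.79% higher, 0 were lower and 1 was higher. This was Kif26b, an atypical kinesin of the developing kidney, a dim gene that passed the filter through its haploid arrays and was well above background on 1 of the 2 diploid arrays. It read -4.08 and -4.46 in haploid and -5.71 and -4.69 in diploid cells, where replicate 1 was the array not well above background. The fitted difference of 0.93 ± 0.35 (adjusted p = 0.384) thus rests in part on a signal not well above background, and it was 0.42 without that array. Kif7, a ciliary regulator of Hedgehog signalling, read -2.93 and -2.63 against -2.69 and -2.16 (-0.35 ± 0.24, adjusted p = 0.583), with overlapping groups, and was at -0.09 without diploid replicate 2. Kif24, which limits cilium growth at the mother centriole, read -2.36 and -2.71 against -2.46 and -2.24 (-0.19 ± 0.20, adjusted p = 0.727), or -0.01 without haploid replicate 2. Its window also held TTCGAA, the only window to do so among the kinesins searched. The groups of Kif24 overlapped, as did those of Kif2a, a depolymerase related to Kif2c, which differed by 0.12 ± 0.18 and by 0.03 without haploid replicate 1. Kif26a and Kif19a differed by -0.14 and -0.07.

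The 5 genes left out by the filter were Kif2b, Kif6, Kif9, Kif12 and Kif27. Kif12 and Kif27 never stood well above background, and Kif6 was so only for 1 probe on diploid replicate 2. Kif2b, a depolymerase best known from testis, was well above background on haploid replicate 1 alone, where it read -2.25, against -7.27 on haploid replicate 2 and -6.93 and -7.68 on the diploid arrays. One probe of Kif9, a motor of motile cilia, was likewise well above background on haploid replicate 2 alone, at -3.27, with -6.16, -6.92 and -6.01 elsewhere. Another probe of Kif9 was well above background on 1 diploid array and 0 haploid arrays, and differed by -0.07. Such values on 1 array of a group have no replicate behind them.

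Of the 13 genes with several probes, 6 had more than 1 past the filter, and the probes differed in sign for 3, Kif1b, Kif1c and Kif2a. For Kif1c the sign rests on a dim probe that passed through its haploid arrays and was well above background on 1 of the 2 diploid arrays, with a fitted 0.95, where the probe standing for the gene gave -0.04. Probes of Kif2a ran from -0.36 to 0.12.

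**Figure D4:**
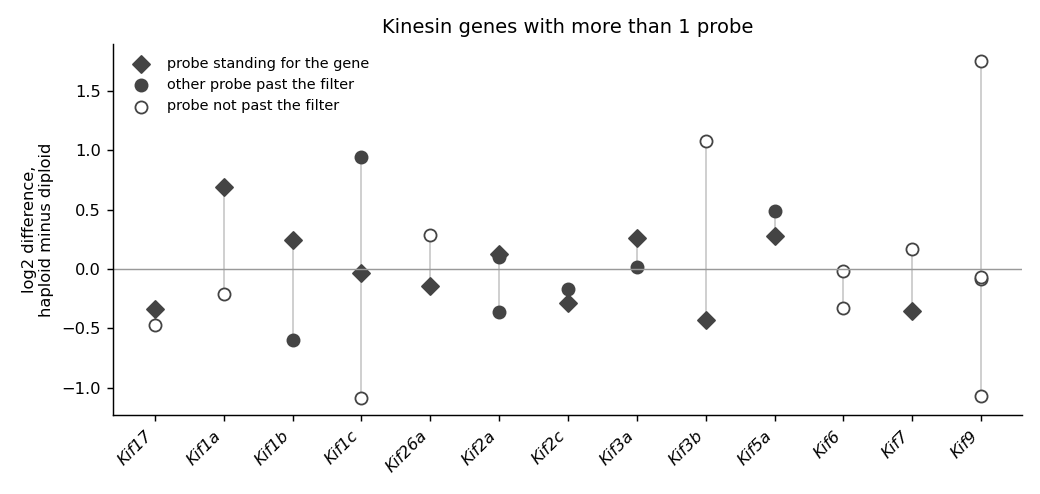
Log2 difference, haploid minus diploid, of every probe of the 13 kinesin genes with more than 1 probe. Diamonds stand for the gene in the comparison, and open circles did not pass the filter on dim probes. Both probes of Kif2c lie below 0, at -0.29 and -0.17, while those of Kif1b lie on both sides.

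Genes listed as partners of the mitotic kinesins lay more often below 0 than above it. The list also holds Cenpe and Kifc5b, which are kinesin motors themselves and differed by -0.36 and -0.66. With them, 10 of 16 genes compared had a lower and 6 a higher haploid mean (median -0.17). Both haploid values lay below both diploid values for 8 and above for 3, beside 20.9% and 26.0% of all features. None passed by limma (0 of 16), with 2 lower and 1 higher at an unadjusted p under 0.05, beside 4.92% and 6.79% of all features. Hmmr, a spindle protein that acts with Tpx2, read 0.47 and 0.81 in haploid against 1.21 and 1.61 in diploid cells (-0.77 ± 0.22, adjusted p = 0.265). Kifc5b, a minus-end directed spindle motor, read 1.52 and 1.87 against 2.36 and 2.35 (-0.66 ± 0.19, adjusted p = 0.272). Its near copy Kifc1 can share its signal, and its other probe gave 0.19. Kpna2, an importin that binds Tpx2, was on the other side at 0.57 ± 0.18 (adjusted p = 0.304). Racgap1, the partner of Kif23 in centralspindlin, differed by -0.25, and Prc1, the partner of Kif4, by 0.10. Both are named outside the rule for naming genes, as is Cenpe.

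Of 19 proliferation genes 10 lay below 0, with a median of -0.02, and 0 passed by limma. At an unadjusted p under 0.05, 1 was lower and 0 were higher, beside 4.92% and 6.79% of all features. Both haploid values lay below both diploid values for 8 of the 19 and above for 4, beside 20.9% and 26.0% of all features. The list holds 6 genes of the brightest class, where all features had a median of 0.22, and the mitotic kinesins hold 0. Set against the median of its own brightness class, 14 of the 19 proliferation genes lay below, as did 9 of the 10 mitotic kinesins and 11 of the 16 partners. Bub1b, a spindle checkpoint kinase, differed by -0.55 ± 0.21, Ccna2, cyclin A2, by -0.38 ± 0.17 and Lin37, a subunit of the complex that binds TTTGAA-type elements, by 0.37 ± 0.17 (adjusted p from 0.402 to 0.457).

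The list of transport kinesin adaptors also holds the minus-end directed motors Kifc2 and Kifc3, which are no adaptors and differed by 0.25 and 0.46. With them, 10 of 19 lay below 0 (median -0.01), and 0 passed by limma. At an unadjusted p under 0.05, 1 was lower and 0 were higher, beside 4.92% and 6.79% of all features. Both haploid values lay below both diploid values for 6 of the 19 and above for 4, beside 20.9% and 26.0% of all features. Set against the median of its own brightness class, 12 of the 19 lay below, so this trait was not limited to the mitotic lists. The mitochondrial adaptors Trak1 and Trak2 differed by -0.42 ± 0.16 and -0.39 ± 0.18, and Plekhm2, a lysosomal adaptor, by -0.39 ± 0.18 (adjusted p from 0.408 to 0.467).

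Tubulins, which form the track, and the genes of the opposite motor were more often higher than lower. Of 17 tubulin genes 14 had a higher haploid mean (median 0.21), with 0 passing by limma and 4 higher and 0 lower at an unadjusted p under 0.05, beside 6.79% and 4.92% of all features. Both haploid values lay above both diploid values for 8 of the 17 and below for 2, beside 26.0% and 20.9% of all features. Of the 17, 8 were in the brightest class, whose features had a median of 0.22, and 11 lay above the median of their own class. Tubb2a differed by 0.70 ± 0.19, Tubb2b by 0.54 ± 0.18 and Tubb3, a neuron-enriched beta tubulin that is in the neuron marker list too, by 0.57 ± 0.19 (adjusted p from 0.238 to 0.332). Tubulin genes resemble one another, and a probe may bind RNA of more than one. Dynein is the motor that walks toward microtubule minus ends, and dynactin is its activator. Of 23 of their genes, 16 had a higher haploid mean (median 0.09), with 0 passing by limma. Both haploid values lay above both diploid values for 11 of the 23 and below for 1, beside 26.0% and 20.9% of all features. At an unadjusted p under 0.05, 0 were lower and 0 higher, beside 4.92% and 6.79% of all features. Of the 23, 11 were in the 2 brightest classes, with medians of 0.09 and 0.22, and 16 lay above the median of their own class. The dynactin genes Actr10, Dctn5 and Dctn4 differed by 0.36 ± 0.18, 0.39 ± 0.21 and 0.31 ± 0.17 (adjusted p from 0.493 to 0.521).

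The medians of both kinesin classes were recomputed under other processing. The mitotic median stayed below 0 in each setting, from -0.34 to -0.11. It lay below the transport median in each setting but normexp on all spots, a background correction, where the mitotic median was -0.11 and the transport median -0.51. In that setting Kif22 (0.24), Kif20a (0.21) and Kif18b (-0.14) also changed sign. On diploid replicate 2 the local background of a spot reached 36360.5 intensity units, against at most 82 on the other arrays, and without spots of high local background the same correction gave -0.25 and 0.01.

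**Figure D5:**
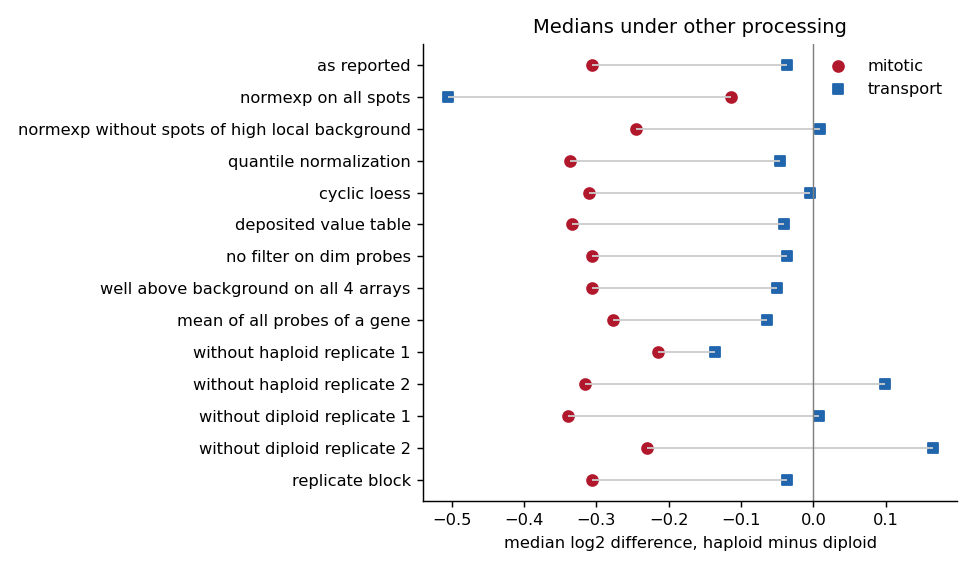
Median log2 difference, haploid minus diploid, of the mitotic (circles) and transport kinesins (squares) under the reported processing and each alternative. Mitotic medians lie between -0.34 and -0.11, and they are below the transport median except with normexp on all spots.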

How the data were processed

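Total RNA (0.2 ug a sample, amplified and labelled with Cy3, per the labels' protocols) of 2 haploid and 2 diploid samples was hybridised to 1-colour Agilent arrays. Per the file headers, Agilent Feature Extraction 11.0.1.1 gave the deposited spot intensity values, the outlier marks and the marks for signal well above background. The authors' value table, an alternative here, also holds intensity values, with method not given in the sources used here. Log2 values, Spearman correlations and fits were computed here with R 4.3.3 and limma 3.58.1, and promoters were searched with Python 3.11.15 and pandas 2.3.3.

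Control and outlier spots (121 to 168 of 43020 an array) were left out, spots of a probe averaged, and the 75th percentile of log2 signal subtracted. It was 526, 553, 617 and 907 intensity units for haploid and diploid replicates 1 and 2, and the arrays had no saturated spot. On each, 53.6% to 65.0% of probes were well above background. Precision is limited by the number of arrays. A probe counted as well above background on an array where at least 50% of its spots were, and the probe with the highest mean stood for its gene. Symbols came from RefSeq (GRCm38.p6). The array design names mm9, so gene coordinates are not given beyond the RefSeq promoter windows.

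The fit was tested on simulated data. Members and lists were chosen with earlier results of these data known. All mitotic kinesins, the 6 largest and 6 smallest moderated t among other kinesins and the 3 smallest p of each pathway list are named. Alternatives covered background, normalization, filter, probe choice, variance model, the value table, replicate block and each array left out, with the filter and probe choice kept. The planned correction on mean signal used the median signal in its place.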

Additional observations from a re-analysis of the deposited data

How the results depend on the processing

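No kinesin was called in any of the 14 alternatives, and 409 of 432 values of single genes kept their direction. The number of features called was 20 as reported. It was 0 for cyclic loess, for normexp on all spots and with no filter, 4 for the value table, 5 for quantile normalization, 2 with the replicate block, 82 with features above background on all 4 arrays, 122 for normexp after removing spots of high local background, 425 with a trended, robust prior variance, and 0 to 294 with 1 array left out. The cause was not tested.

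With normexp on all spots the mitotic median was -0.11, the transport median -0.51 and their difference 0.39. With 1 array left out they ran from -0.34 to -0.21, from -0.14 to 0.17 and from -0.41 to -0.078. Under that normexp Kif22 (0.24), Kif20a (0.21), Kif18b (-0.14), Kif13b (-0.81), Kif1a (-0.59) and Kif26b (-0.78) changed sign. After removing spots of high local background Kif3b (0.0092), Kif26a (0.0098) and Kif19a (0.091) did, for cyclic loess Kif19a (0.052), and with the mean of all probes Kif1c (0.45), Kif1b (-0.17) and Kif2a (-0.045). With 1 array left out Kif5b ran from -0.57 to 0.12, Kif5c from -0.31 to 0.042, Kif13a from -0.27 to 0.14, Kif1c from -0.24 to 0.17, Kif21b from -0.18 to 0.40, Kif26a from -0.63 to 0.35 and Kif19a from -0.30 to 0.15. Same-numbered samples hardly deviated together (Pearson correlation 0.05 across features), and the replicate block left 0 higher and 2 lower calls.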
